A study of Homo sapiens with 6 samples.

Results

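The genes of cholesterol and fatty acid synthesis were followed in A549 cells, a human lung adenocarcinoma cell line, with and without overexpression of the DNA repair and redox protein APEX1. The set was picked by gene symbol from the known pathway, by a rule that holds no measured value although earlier results of these libraries were known, and comprised 30 of the 32192 genes in the count table. It held 18 enzymes of the sterol pathway, 4 genes of the SREBP regulatory machinery together with the sterol carrier STARD4, and 7 enzymes of fatty acid synthesis and desaturation. All 30 genes were found by symbol and all 30 passed the filter on low counts, as did 16971 genes in all. Poly(A)-selected RNA was sequenced from 6 libraries of 1 cell line grown in serum-containing medium. In 3 libraries the labels give APEX1 overexpression (APEX1-OE), for which the APEX1 coding sequence with a FLAG tag was cloned into the vector pIRES-hrGFP-1a. The other 3 libraries are the control (Ctrl) of the same line. The study describes transient transfection of A549 cells with a control vector or the APEX1 vector, without naming the RNA libraries there. The share of cells that carried the plasmid and the time of harvest for RNA are not given by the sources used here, and in such bulk RNA fewer expressing cells and less RNA per cell cannot be told apart. The labels do not say that the libraries came from separate cultures, so the p-values measure the spread between these libraries, which may be technical.

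Cells make cholesterol from acetyl-CoA through mevalonate, farnesyl diphosphate, squalene and lanosterol, and make fatty acids from the same acetyl-CoA through malonyl-CoA. Both routes are controlled by the SREBP transcription factors, which are held in the endoplasmic reticulum by SCAP and INSIG proteins when sterols are plentiful, and are carried to the Golgi, cleaved and released to the nucleus when sterols fall. SREBP-2, from SREBF2, acts mainly on sterol genes, and SREBP-1, from SREBF1, mainly on fatty acid genes. In lung, alveolar type II cells use this lipid synthesis for surfactant, and many carcinomas run it at a high rate.

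Promoter sequence was searched for motifs through which these factors are known to act. It was taken from RefSeq windows of 250 bases before to 50 bases after each start site (GRCh38.p14). A window was found for 26 of the 30 genes, 35 windows in all, and none for SQLE, FDFT1, ACAT2 and FASN. The sterol regulatory element, searched on both strands as TCACNCCAC, was present in 1 of the 35 windows, against 1.13% of 35116 windows of all genes. The E-box form TCACGTGA was likewise present in 1 window, against 0.98% of all windows. CCAAT, the site of NF-Y, which binds beside SREBP, was present in 24 of the 35 windows (68.6%), against 34.6% of all windows. By gene this was 20 of the 26, since some genes have more than 1 window. The share by gene over all genes was not counted, so 20 of 26 has no matching background. Overlapping windows of SC5D and of ACLY hold the same sites, which the count by window includes more than once. A match of letters is a description of these windows and does not show binding. Other forms of the motifs were not searched. The following 4 stretches, written along the gene's own strand, are shown because they hold the single sterol regulatory element, the single E-box form and a CCAAT site each from an early enzyme of the sterol pathway. Capitals mark the motif, with ATTGG as the complement of CCAAT. The lines give SREBF2 (chr22:41832962-41832990, plus strand), INSIG1 (chr7:155297812-155297839, plus strand), HMGCS1 (chr5:43313498-43313522, minus strand) and FDPS (chr1:155308734-155308758, plus strand).
SREBF2: tgacgcgccaTCACCCCACgcaccgcttc
INSIG1: ccgggcaggcTCACGTGAtgcgggcccc
HMGCS1: accggccgcgATTGGctgtgggagc
FDPS: cggccagcagCCAATcagcgcggct

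Overexpression was visible in every library labelled with it. APEX1 stood at 617.5, 680.3 and 768.23 FPKM (fragments per kilobase of transcript, scaled to mapped read depth) in APEX1-OE replicates 1 to 3 and at 128.84, 126.26 and 123.84 FPKM in Ctrl, a log2 fold change of 2.42 (SE 0.171, adjusted p = 0.00809, edgeR quasi-likelihood test). Total counts were 28131955 to 41009197 per library. The epithelial keratins KRT8 and KRT18 were between 2010.96 and 3562.01 FPKM in the 6 libraries, whereas EPCAM was at or below 0.52 FPKM, and markers of endothelium, hepatocytes and alveolar type II cells (PECAM1, ALB, SFTPC and NKX2-1) were at or below 0.13 FPKM and the fibroblast collagen COL1A1 at or below 0.73 FPKM. The libraries did not group by treatment. The first principal component, with 72.6% of the variance of log2 CPM (counts scaled to library size), set APEX1-OE replicate 1 and Ctrl replicates 1 and 2 apart from APEX1-OE replicates 2 and 3 and Ctrl replicate 3, and the same split recurs below in the lipid genes.

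In A549 cells the lipid genes were expressed well above the typical gene. Their median of the mean FPKM over the 6 libraries was 20.0, against 2.68 for all genes tested, and 27 of the 30 genes lay above the latter value. The levels per length spanned a 50.2-fold range. The top of the range was held by 3 fatty acid enzymes, ACLY (108.6 FPKM), SCD (94.5 FPKM) and FADS2 (88.3 FPKM). The bottom held the sterol carrier STARD4 (2.17 FPKM), the sterol desaturase SC5D (2.32 FPKM) and the fatty acid elongase ELOVL6 (2.46 FPKM). Within the sterol pathway FDPS, which makes farnesyl diphosphate, had the highest mean level at 73.7 FPKM. Together the 30 genes took between 0.391% and 0.453% of all counts of a library. Ranges of neighbouring genes overlapped along most of the order of levels, as the plot of FPKM by library shows.

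**Figure D1:**
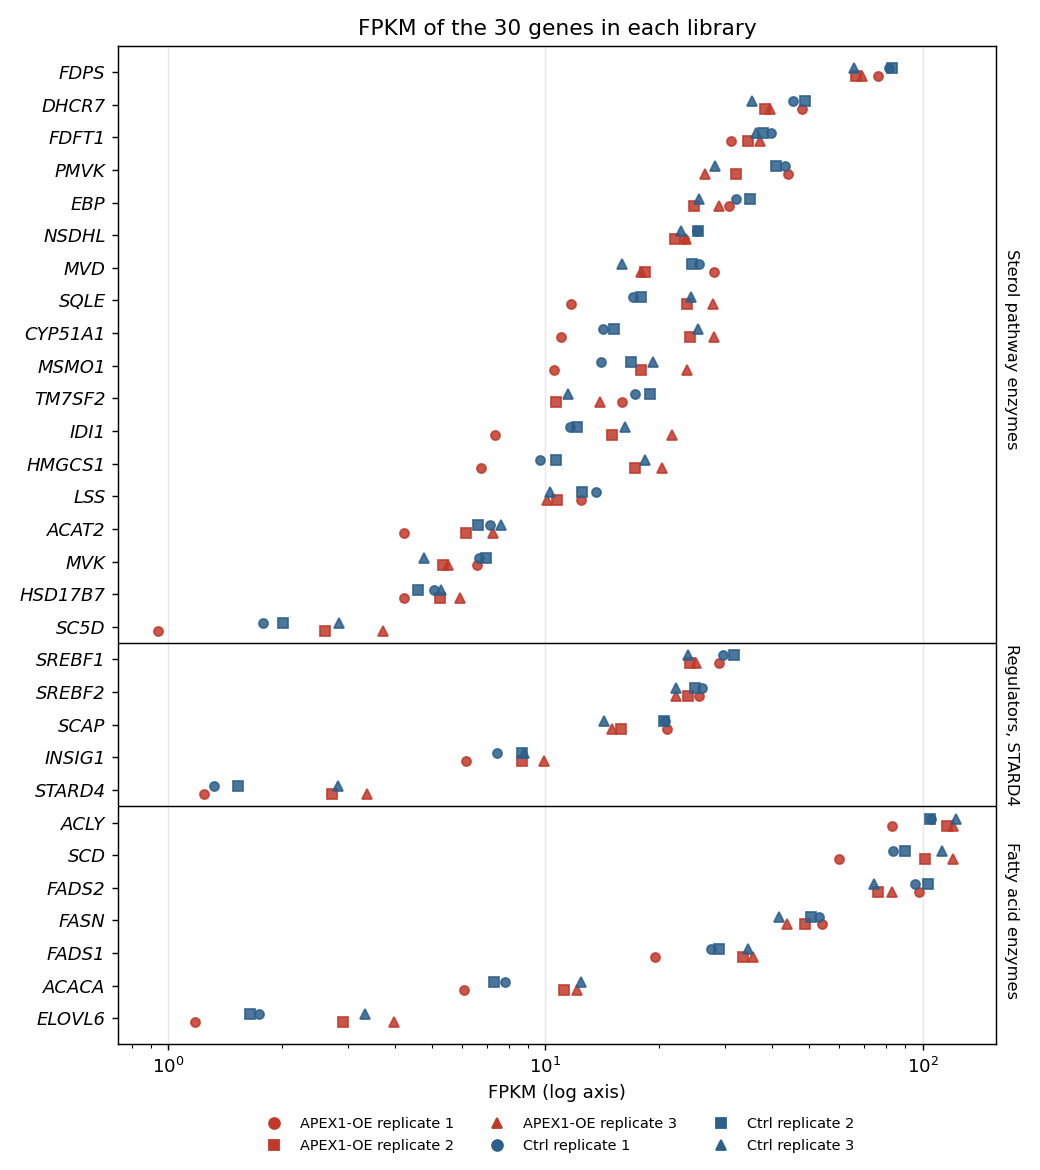
FPKM (log axis) of the 30 genes in each of the 6 libraries, in 3 blocks: sterol pathway enzymes, SREBP regulators with STARD4, and fatty acid enzymes. Red symbols are APEX1-OE, blue symbols are Ctrl, and the shape gives the replicate. Red and blue symbols overlap for every gene, and for genes such as HMGCS1, SC5D and ELOVL6 the spread within a group is wider than the distance between the groups.

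No gene of cholesterol or fatty acid synthesis passed the test between APEX1-OE and Ctrl. At an adjusted p under 0.05 (edgeR quasi-likelihood test, Benjamini-Hochberg over all genes tested) 0 of the 30 genes were called, against a background of 0.00589% of all genes, which is APEX1 alone. At an unadjusted p under 0.05 the count was also 0 of 30, against 0.695% of all genes. That is fewer small p-values than the threshold gives where no gene differs, so the test was conservative here. With the library split as a further term the share of all genes was 11.6%. A count of 0 therefore does not show that the genes were unchanged. DESeq2, limma-voom and limma on log2(FPKM + 1) each gave 0 genes of the set at either threshold too. Of all genes, each of these fits called 1 at the adjusted threshold, and only a small share passed the unadjusted one. The fits reuse the same libraries, so 0 of 30 in them is near the background and is not separate evidence. Log2 fold changes were above 0 for 11 genes and below 0 for 19, so that 36.7% lay above 0, against 57.5% of all genes. They ran from -0.31 (ACAT2) to 0.33 (STARD4) with a median of -0.055, within the range of -0.34 to 0.50 that holds the middle 90% of all genes, whose median was 0.033. The groups did not overlap in CPM for 1 of the 30 genes (3.33%), ACAT2, which was lower in APEX1-OE, against 3.39% of all genes and 2.01% lower. Both shares of calls and of separated groups were therefore near the background.

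The size of change that these libraries leave possible differed by gene. The 95% interval of the log2 fold change included 0 for all 30 genes. For 26 of them it excluded a 2-fold change in either direction. The exceptions were HMGCS1 (-0.694 to 1.008), SC5D (-0.87 to 1.02), STARD4 (-0.54 to 1.20) and ELOVL6 (-0.73 to 1.15), whose upper bounds passed 2-fold. Standard errors went from 0.166 for ACLY to 0.409 for SC5D.

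**Figure D2:**
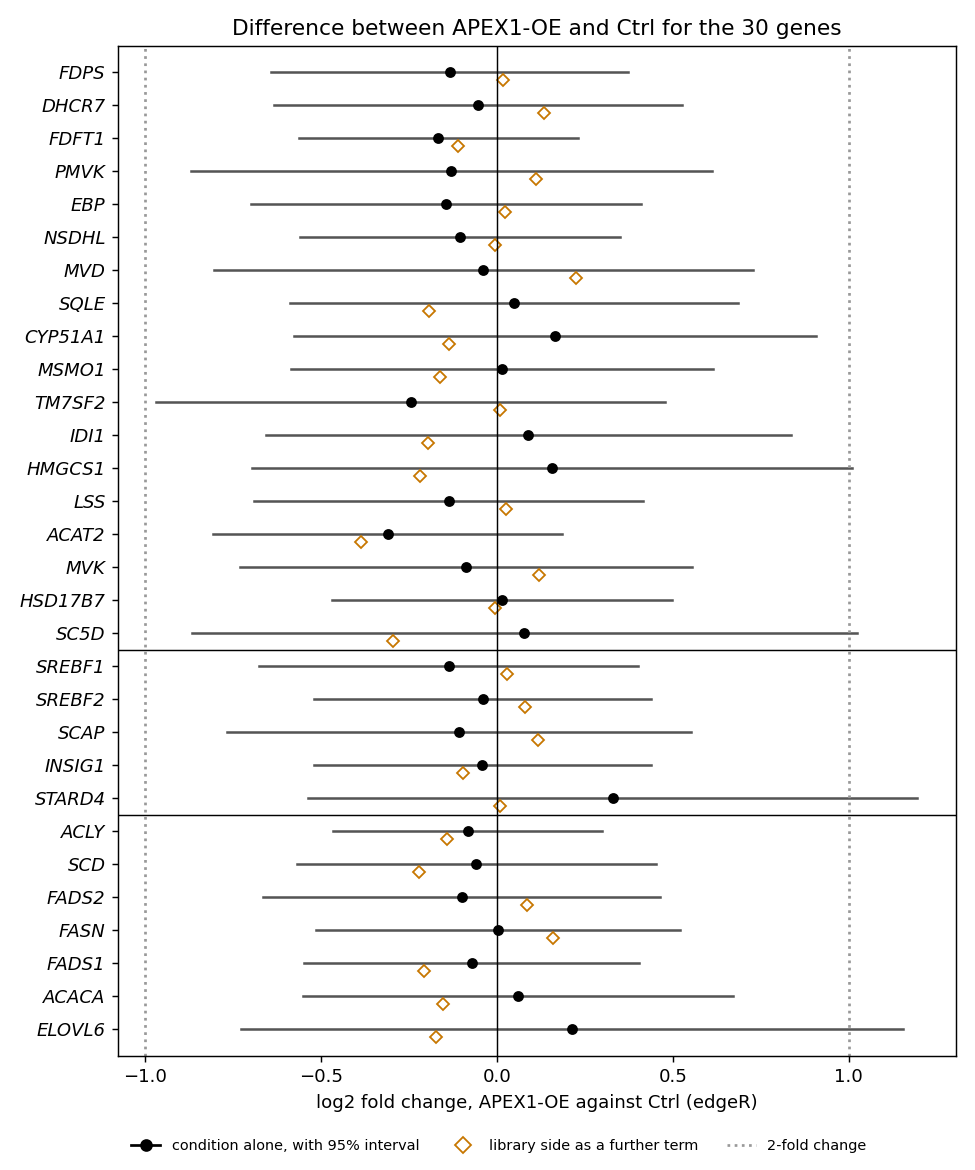
Log2 fold change of APEX1-OE against Ctrl for the 30 genes (edgeR), in the same blocks and order as the plot of levels. Black points with bars are the fit with the condition alone and its 95% interval, open diamonds the fit that also holds the library split of the first principal component, and dotted lines mark a 2-fold change. All 30 bars cross 0, and 4 of them pass the dotted line on the right.

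Of the regulators, SREBF1, which encodes the precursor of SREBP-1, stood at 28.81, 24.21 and 25.01 FPKM in APEX1-OE and at 29.61, 31.71 and 23.85 FPKM in Ctrl. The lowest and the highest value were both Ctrl libraries, and the log2 fold change was -0.14 (SE 0.233). SREBF2, the gene of SREBP-2, was steadier, at 25.52, 23.92 and 22.19 FPKM in APEX1-OE against 26.05, 24.95 and 22.17 FPKM in Ctrl. Its groups covered nearly the same range, with a log2 fold change of -0.040 (SE 0.207).

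SCAP, the escort that carries SREBP to the Golgi, was at 20.95, 15.85 and 14.99 FPKM in APEX1-OE and at 20.72, 20.67 and 14.27 FPKM in Ctrl. Each group held high and low libraries, APEX1-OE replicate 1 with Ctrl replicates 1 and 2 at the top, and the log2 fold change was -0.11 (SE 0.285). INSIG1, the sterol-sensitive retention protein and itself a target of SREBP, was at 6.15, 8.66 and 9.89 FPKM in APEX1-OE and at 7.42, 8.66 and 8.75 FPKM in Ctrl. The lowest and the highest library were both APEX1-OE, and the log2 fold change was -0.041 (SE 0.208). STARD4, which moves cholesterol between membranes, had the largest positive log2 fold change of the set, 0.33 (SE 0.374). Its levels were 1.24, 2.71 and 3.37 FPKM in APEX1-OE and 1.32, 1.53 and 2.82 FPKM in Ctrl, and APEX1-OE replicate 1 was the lowest of all 6 libraries. Over the 4 regulators and STARD4 the log2 fold change was above 0 for 1 gene and below 0 for 4, with a median of -0.041. That median depended on single libraries, from -0.20 without APEX1-OE replicate 1 to 0.034 without APEX1-OE replicate 3.

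Among the 18 sterol pathway enzymes 7 had a log2 fold change above 0 and 11 below 0, with a median of -0.070, and none was called. ACAT2, the cytosolic thiolase that makes acetoacetyl-CoA at the entry of the pathway, was the one gene with separated groups. Its CPM was 18.5, 22.9 and 26.2 in APEX1-OE and 28.7, 27.2 and 28.0 in Ctrl, a mean of 22.6 ± 3.87 (SD, n = 3) against 28.0 ± 0.775 (SD, n = 3). All 3 APEX1-OE libraries lay below all 3 Ctrl libraries, replicate 1 farthest. The log2 fold change was -0.31 (SE 0.216), with an edgeR p of 0.189 and an adjusted p of 1.00. In FPKM the groups overlapped, at 4.22, 6.17 and 7.28 against 7.13, 6.63 and 7.64, and an exact two-sided permutation test gave p = 0.3, where 0.1 is the smallest p that 3 libraries against 3 allow. The log2 fold change of ACAT2 was below 0 in each of 27 fits of the same libraries, between -0.50 and -0.20. It came to -0.20 without APEX1-OE replicate 1. Of the exonic bases of ACAT2, 17.2% are shared with TCP1 on the opposite strand, and since the use of strand in counting is not given, reads of the pair cannot be told apart.

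HMGCS1, the HMG-CoA synthase that takes the next step, was at 6.74, 17.30 and 20.42 FPKM in APEX1-OE and at 9.69, 10.66 and 18.36 FPKM in Ctrl. Replicate 1 and replicate 3 of APEX1-OE were the lowest and the highest library, and the log2 fold change was 0.16 (SE 0.368). CYP51A1, the lanosterol demethylase, followed the same order of libraries with 11.01, 24.19 and 27.97 FPKM in APEX1-OE and 14.25, 15.16 and 25.42 FPKM in Ctrl. Its log2 fold change of 0.17 (SE 0.321) was less than the spread within either group. SC5D, the sterol desaturase late in the pathway, was at 0.94, 2.61 and 3.72 FPKM in APEX1-OE and at 1.78, 2.02 and 2.83 FPKM in Ctrl, so that the control range lay inside the APEX1-OE range. HMGCS1 shares 37.7% of its exonic bases with a long noncoding RNA of the opposite strand, and CYP51A1 shares 68.2% with another annotated gene of its own strand, so their counts may hold or miss reads of these neighbours.

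TM7SF2, a sterol reductase after CYP51A1, had the second lowest log2 fold change, -0.24 (SE 0.312). It was at 15.98, 10.64 and 13.98 FPKM in APEX1-OE and at 17.31, 18.96 and 11.47 FPKM in Ctrl, with Ctrl replicate 3 among the low libraries. FDFT1, squalene synthase at the branch to sterols, was at 31.12, 34.53 and 37.00 FPKM in APEX1-OE and at 39.58, 37.67 and 36.12 FPKM in Ctrl. Only APEX1-OE replicate 3 and Ctrl replicate 3 overlapped, and the log2 fold change of -0.17 (SE 0.172) had an edgeR p of 0.364. FDFT1 and ACAT2 were the 2 genes whose log2 fold change kept its sign in all 27 fits, whereas that of the other 28 turned in at least 1. The fits reuse the same libraries, and the share of all genes that kept their sign was not counted. A constant sign is therefore not repeated evidence for these 2 genes. The remaining sterol enzymes lay between -0.14 (EBP, the sterol isomerase) and 0.090 (IDI1, the isopentenyl diphosphate isomerase) on the log2 scale. HSD17B7, the ketosteroid reductase of the pathway, has a closely similar pseudogene and its counts are uncertain for that reason.

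The 7 fatty acid enzymes had 3 log2 fold changes above 0 and 4 below, with a median of -0.057, which turned to 0.076 without APEX1-OE replicate 1 and was -0.12 without APEX1-OE replicate 3. ACLY, which splits citrate into the acetyl-CoA used by both routes, was at 83.07, 116.08 and 120.48 FPKM in APEX1-OE and at 105.16, 104.70 and 122.38 FPKM in Ctrl. It had the smallest standard error of the set, with a log2 fold change of -0.083 (SE 0.166). SCD, the desaturase that makes oleate, was at 60.12, 101.30 and 120.04 FPKM in APEX1-OE and at 83.45, 89.57 and 112.40 FPKM in Ctrl, and the control libraries again fell inside the APEX1-OE range (log2 fold change -0.057, SE 0.221). ELOVL6, which lengthens palmitate to stearate, had the second largest log2 fold change, 0.21 (SE 0.407). Its levels were 1.18, 2.90 and 3.96 FPKM in APEX1-OE and 1.74, 1.65 and 3.33 FPKM in Ctrl, with APEX1-OE replicate 1 lowest and APEX1-OE replicate 3 highest. The fatty acid synthase FASN and the acetyl-CoA carboxylase ACACA had log2 fold changes of 0.0038 (SE 0.224) and 0.061 (SE 0.264).

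The desaturases of polyunsaturated fatty acids, FADS1 (chr11:61799627-61829318, minus strand) and FADS2 (chr11:61792980-61867354, plus strand), overlap on chromosome 11 (GRCh38, GENCODE 44) and share 490 exonic bases. FADS1 was at 19.55, 33.34 and 35.59 FPKM in APEX1-OE and at 27.40, 28.86 and 34.38 FPKM in Ctrl. FADS2 was at 97.68, 75.96 and 83.02 FPKM in APEX1-OE and at 95.66, 103.24 and 74.50 FPKM in Ctrl. The neighbours thus ran in opposite directions over the libraries: the 3 libraries in which FADS1 was highest were the 3 in which FADS2 was lowest, and they were APEX1-OE replicates 2 and 3 and Ctrl replicate 3. The GC content of the longest transcript is 49.3% for FADS1 and 58.6% for FADS2.

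This order of libraries ran through most of the set. In log2 CPM, 26 of the 30 genes (86.7%) had APEX1-OE replicates 2 and 3 and Ctrl replicate 3 entirely on one side of the other 3 libraries, against 66.4% of all genes, from whose values the split itself was taken. Of these, 11 genes were higher in the former 3 libraries (35.5% of all genes), HMGCS1, CYP51A1, SCD and ELOVL6 among them, and 15 were lower (30.9% of all genes), SREBF1, SCAP, FASN and MVD among them. The higher genes had a GC content of at most 52.3% and the lower ones of at least 47.0%. MSMO1, HSD17B7, ACAT2 and INSIG1 were not separated in this way. GC content of the longest transcript ranged from 34.4% (STARD4) to 65.3% (FASN).

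Across the 30 genes, the deviation of a gene in a library from its own mean was correlated with GC content in each library. Pearson's r was 0.90, -0.80 and -0.89 in APEX1-OE replicates 1 to 3 and 0.83, 0.77 and -0.88 in Ctrl replicates 1 to 3. Over 16746 genes with a GC value the correlations had the same signs, at 0.75, -0.59, -0.77, 0.63, 0.63 and -0.70. These are descriptions across genes, which are not independent replicates and share each library. The mean GC content weighted by counts was 53.4%, 51.2% and 50.4% in APEX1-OE and 52.4%, 52.5% and 50.7% in Ctrl, and the weighted transcript length was longest, at 3836 to 3873 bases, in the 3 libraries with low GC. What differed between the libraries in extraction, fragmentation or amplification was not tested.

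**Figure D3:**
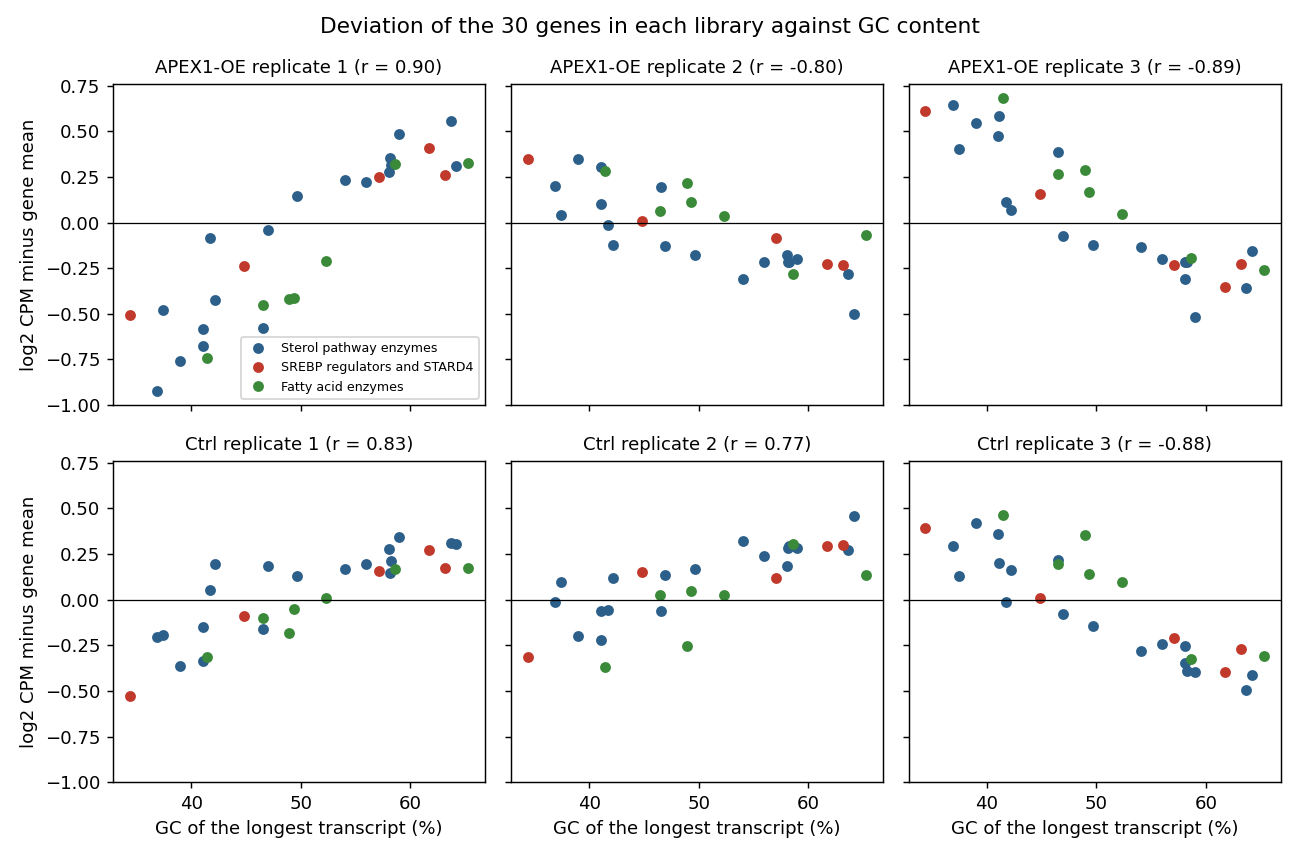
Deviation of each of the 30 genes from its own mean (log2 CPM) in each library, against the GC content of its longest transcript (percent). Points are genes, coloured by list, and r is Pearson's correlation. Genes with high GC sit above their mean in APEX1-OE replicate 1 and Ctrl replicates 1 and 2 and below it in the other 3 libraries.

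After an offset for GC content and length was set for each gene and library, the correlations with GC in the 30 genes lay between -0.32 and 0.27, and the median ratio of the highest to the lowest library fell from 1.63 to 1.27. Over all genes the same ratio went from 1.68 to 1.39. The offset was fitted to these same counts, so lower correlations with GC were built in. It did not remove the library split. After it the sides were apart for 17 of the 30 genes, against 43.6% of all genes. Among the 17, MSMO1, HSD17B7 and INSIG1 had not been apart before the offset. With the offset 0 of the 30 genes were called, against 0.00597% of all genes, and 4 had a log2 fold change above 0, against 50.7% of all genes, with a median of -0.072. ACAT2 was the gene with an unadjusted p under 0.05 in that fit, against 3.14% of all genes, with a log2 fold change of -0.39. The number of genes above 0 stayed between 3 and 8 of 30 when each library was left out of the fit with the offset, against 48.4% to 52.7% of all genes.

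When the library split entered the fit as a further term, the standard errors became smaller and still 0 of the 30 genes were called, against 0.0236% of all genes, the lowest adjusted p being 0.356 (edgeR). At an unadjusted p under 0.05 there were 3 of 30 (10.0%), against 11.6% of all genes. ACAT2 had a log2 fold change of -0.38 (adjusted p = 0.356, edgeR), the mevalonate diphosphate decarboxylase MVD of 0.22 (adjusted p = 0.397, edgeR) and SCD of -0.22 (adjusted p = 0.429, edgeR). MVD itself was at 27.93, 18.32 and 17.92 FPKM in APEX1-OE and at 25.58, 24.49 and 15.94 FPKM in Ctrl, with overlapping groups. Its log2 fold change was -0.038 with the condition alone, 0.0053 with the offset alone and 0.061 with both the offset and the split. With the split alone, log2 fold changes were above 0 for 14 genes, against 51.6% of all genes, and below 0 for 16. With both the offset and the split 0 genes were called, against 0.0776% of all genes, and 7 were above 0, against 51.7%. An unadjusted p under 0.05 was found for 2 of 30 (6.67%), against 12.6% of all genes, namely ACAT2 (-0.30, adjusted p = 0.181, edgeR) and ACLY (-0.15, adjusted p = 0.347, edgeR). Because the split was taken from the counts themselves, these p-values are a description of the remaining spread. Within the sides of the split, ACAT2 differed by -0.58 on the log2 scale for APEX1-OE replicate 1 against Ctrl replicates 1 and 2. For APEX1-OE replicates 2 and 3 against Ctrl replicate 3 the difference was -0.19. The negative sign on each side follows from the separated CPM groups of ACAT2 and adds nothing to them.

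A further 39 genes of sterol, SREBP, fatty acid and LXR biology were examined, of which 38 were tested and THRSP was not. None was called, none had an unadjusted p under 0.05 and none had separated groups, against the background of 0.00589%, 0.695% and 3.39% of all genes. Log2 fold changes were above 0 for 3 of 7 other sterol and isoprenoid genes, 4 of 6 genes of SREBP processing, 6 of 16 other fatty acid genes and 4 of 9 genes of LXR signalling, sterol export and storage. The 3 with the largest absolute value were ABCA1, the cholesterol exporter (0.45, SE 0.555), ACSL3, an acyl-CoA synthetase (0.40, SE 0.410), and ABCG1, a second sterol exporter (-0.34, SE 0.259). ABCA1 was at 0.48, 1.87 and 2.08 FPKM in APEX1-OE and at 0.68, 0.61 and 1.88 FPKM in Ctrl, and ACSL3 at 4.85, 12.54 and 15.69 against 5.76, 6.0 and 12.6 FPKM. For both, the 3 high libraries were APEX1-OE replicates 2 and 3 and Ctrl replicate 3, as for HMGCS1 and SCD. ABCG1 was low in every library, at 0.24, 0.30 and 0.35 FPKM in APEX1-OE and 0.46, 0.34 and 0.32 FPKM in Ctrl, and the groups overlapped.

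**Figure D4:**
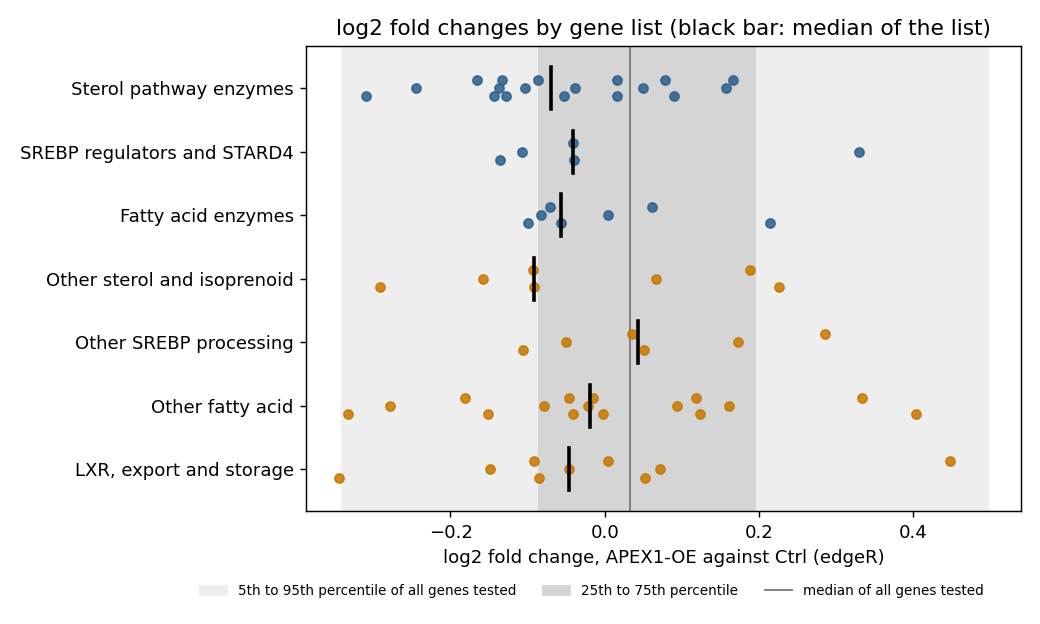
Log2 fold change of APEX1-OE against Ctrl (edgeR) for each tested gene of the 3 lists of the set (blue) and of 4 lists of other pathway genes (orange), with the list median as a black bar. Shaded bands give the 5th to 95th and 25th to 75th percentile of all genes tested and the grey line their median of 0.033. All blue points lie inside the wider band, and ABCG1, at -0.34, lies at its lower edge.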

How the data were processed

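Reads were cleaned (FASTX-Toolkit) and mapped to GRCh38 (TopHat2) by the authors, and those mapped uniquely gave the deposited raw counts per gene and the deposited FPKM values (2 decimals). The counting tool, its annotation and its use of strand are not given by the sources used here. The library kit was a stranded one.

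Counts of 3 APEX1-OE and 3 Ctrl libraries were filtered with filterByExpr (minimum count 10, total 15), TMM normalized and tested with the robust quasi-likelihood F-test of edgeR 4.0.16 (R 4.3.3), the condition being the only term, with Benjamini-Hochberg adjustment over 16971 genes. DESeq2 1.42.0 and limma 3.58.1 were alternatives. The GC and length offset was a spline (5 degrees of freedom each) on the longest GENCODE 44 transcript, available for 98.7% of tested genes. The edgeR procedure was tested on simulated data, and that test is not used as support for any result here. The closest pair of libraries, Ctrl replicates 1 and 2, had a chi-square per degree of freedom of 3.63, so none was a repeat deposit. The other pairs ranged from 11.2 to 192, so these 2 controls were closer to each other than any other pair.

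The genes and lists were chosen with earlier results of these data known. Values in each library are given for SREBF1, SREBF2, SCAP and INSIG1, for genes with an unadjusted p under 0.05 or separated groups in the edgeR test without further terms, and for the 3 genes at each end of log2 fold change and of mean FPKM and the 3 with the largest ratio between libraries. FADS1, MVD and the positions of FADS1 and FADS2 were added after values were seen. Other pathway genes are named if among the 3 largest absolute log2 fold changes.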

Additional observations from a re-analysis of the deposited data

How the results depend on the processing

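In all 27 fits, 0 of the 30 genes were called. Separated groups were found for 1 gene with the counts, 0 with FPKM (limma, log2(FPKM + 1) with or without a filter, and log2(FPKM + 0.1)) and 1 to 3 when a library was left out (3 without APEX1-OE replicate 1, with FDFT1 and NSDHL joining ACAT2, and 2 without Ctrl replicate 3). With library totals alone the 1 gene was FDFT1. The share of all genes with separated groups was not counted for these alternatives. A group of 2 libraries separates more easily than a group of 3. The higher counts are therefore not read as a result about FDFT1 or NSDHL. Genes above 0 numbered 11 in the main comparison, 4 with the GC and length offset, 7 with the offset and the library split, 4 with the offset and the replicate block, and 7 to 16 when a library was left out (with the offset 7, 6, 4, 3, 8 and 5 without APEX1-OE replicates 1 to 3 and Ctrl replicates 1 to 3). The median log2 fold change was -0.0052 with the library split and -0.075 with the offset and the replicate block. When a library was left out it was -0.20 (without APEX1-OE replicate 1) to 0.0030 (without Ctrl replicate 2). With the offset it was -0.084, -0.051 and -0.11 without APEX1-OE replicates 1 to 3. Without Ctrl replicates 1 to 3 it was -0.059, -0.046 and -0.14 with the offset. Without the offset, leaving out a library gave medians of the sterol enzymes from -0.23 to -0.0064, of the regulators with STARD4 from -0.20 to 0.034 and of the fatty acid enzymes from -0.12 to 0.076. All genes called numbered 1, but 2 with log2(FPKM + 0.1), 10 with no filter on low counts, 2 with the replicate block, 4 with the library split, 13 with the offset and the split, and 0 to 1 when a library was left out (0 without APEX1-OE replicate 2 or 3 or Ctrl replicate 1 or 2). The cause was not tested. Deviations of libraries with the same replicate number correlated at 0.61, -0.52 and 0.70. Replicates 1 and replicates 3 each lay on the same side of the library split, and replicates 2 on opposite sides. These values therefore cannot show whether the libraries were prepared in pairs. The replicate block gave 0 genes of the set called. Leaving out each library with the offset was chosen after seeing the data. With 3 libraries a group, the 95% interval reached past a 2-fold change for 4 genes.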

Other observations

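In the fit with both the GC and length offset and the library split, which was run on the other pathway genes as well, 13 of the 38 tested had an unadjusted p under 0.05 (34.2%), 3 higher and 10 lower in APEX1-OE, against 12.6% of all genes (7.85% higher and 4.78% lower). With the split alone there were 9 of 38 (23.7%), against 11.6% of all genes, and with the offset alone 1 of 38, against 3.14% of all genes. None was called, and the lowest adjusted p was 0.160 (edgeR). The following genes were picked with their values in view. The acyl-CoA synthetase ACSL1 had a log2 fold change of -0.33 and the desaturase SCD5 of -0.32. The enoyl-CoA reductase TECR stood at 0.27 and the elongase ELOVL1 at 0.23. With the condition alone these 4 genes had log2 fold changes of -0.021, -0.28, -0.016 and 0.094, so TECR turned in sign. The split was taken from the same counts, and no explanation of these values was tested.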
